A study of Mus musculus with 6 samples.

Results

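The 8 genes of class II antigen presentation described here are Cd74, H2-Aa, H2-Ab1, H2-Eb1, H2-DMa, H2-DMb1, H2-Oa and Ciita. They were chosen by gene symbol in the platform's probe annotation, out of the 10698 named there, and 9 probes of the 16281 in the value table carry one of these symbols: Cd74 had 2 probes and each of the others 1. Of the 8 genes, 6 had a value other than exactly 0 on all 6 arrays. H2-DMb1 was at exactly 0 on both arrays of set 1 and H2-Aa on 1 array of set 2, and a value of exactly 0 counts here as not measured.

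The RNA came from RAW 264.7 cells, mouse macrophages kept as a line since they were taken from an Abelson virus tumour, and written RAW 264.4 in part of the labels. Cells were kept for 4 h untreated or with bacterial lipopolysaccharide (LPS, 100 ng/ml) together with LPS-binding protein (LBP, 100 pM). Each of the 6 two-colour arrays carried treated and untreated total RNA, with treated RNA in Cy5 on 3 arrays and in Cy3 on the other 3, numbered as sets 1 to 3 in each orientation. Whether the sets were separate cultures is not in the labels, so each p-value reflects the spread among these samples only, and that spread may be technical. All groups are 1 cell line at 1 time point, and no interferon-γ treatment is among them.

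MHC class II molecules carry peptides from endosomes to the cell surface, where CD4+ T cells read them. An α and a β chain (H2-Aa with H2-Ab1, H2-Ea with H2-Eb1) pair in the endoplasmic reticulum with the invariant chain Cd74, which blocks the peptide groove and steers the complex to endosomes. Proteases then cut Cd74 down, and H2-DM (H2-DMa with H2-DMb1) exchanges the remnant for antigenic peptide, a step that H2-O (H2-Oa with H2-Ob) restrains. Ciita is the coactivator that turns these genes on together. In macrophages its classical inducer is interferon-γ, in part through Irf1.

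Class II promoters share an X box, bound by the RFX complex, and a Y box, bound by NF-Y, to which Ciita is recruited. Sequences are shown to let these letters be compared between the members that have a window. Of the 8 genes, 5 matched RefSeq's promoter windows (GRCm38.p6, 250 bases before to 50 after the annotated start): H2-Aa, H2-Eb1, H2-DMa, H2-DMb1 and H2-Oa. Cd74, H2-Ab1 and Ciita had no entry. The letters GNAAC were searched as the core of the X box and TGATTGG as that of the Y box, on both strands, with 10 to 40 bases between them. These letters and the spacing were set after the sequences had been seen. In 4 of the 5 genes both lay in this order on the gene's strand, and they are printed 5′ to 3′ from 110 to 31 bases before the start, with both cores in capitals.
H2-Aa: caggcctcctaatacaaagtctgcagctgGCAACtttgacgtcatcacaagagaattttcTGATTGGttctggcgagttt
H2-Eb1: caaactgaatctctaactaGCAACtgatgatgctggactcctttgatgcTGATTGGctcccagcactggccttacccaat
H2-DMb1: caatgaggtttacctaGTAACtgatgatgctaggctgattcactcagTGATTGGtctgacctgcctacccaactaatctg
H2-Oa: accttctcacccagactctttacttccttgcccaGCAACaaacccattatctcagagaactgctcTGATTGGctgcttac
On GRCm38.p6 they lie at chr17:34287854-34287933 (H2-Aa, minus strand), chr17:34305757-34305836 (H2-Eb1, plus strand), chr17:34153081-34153160 (H2-DMb1, plus strand) and chr17:34092269-34092348 (H2-Oa, plus strand).

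The first base of the X core lay 31 bases before that of the Y core in H2-Aa, H2-DMb1 and H2-Oa, and 30 bases before it in H2-Eb1. H2-Ob and H2-Eb2, class II genes with no probe here, held the same pair at 28 and 30 bases, and H2-DMb2, also without a probe, held TGATTGG and no pair. Neither of the 2 windows of H2-DMa held TGATTGG, which says only that these letters are not there. Of all 32851 windows in the RefSeq table, 84.8% held GNAAC, so these letters alone set few windows apart, and 7.82% held TGATTGG. Both cores at the allowed distance on the same strand were in 0.828%. A match is a description of letters, not evidence that a factor binds. The windows are those of the reference genome, and the sequence in the cells used here was not examined.

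**Figure D1:**
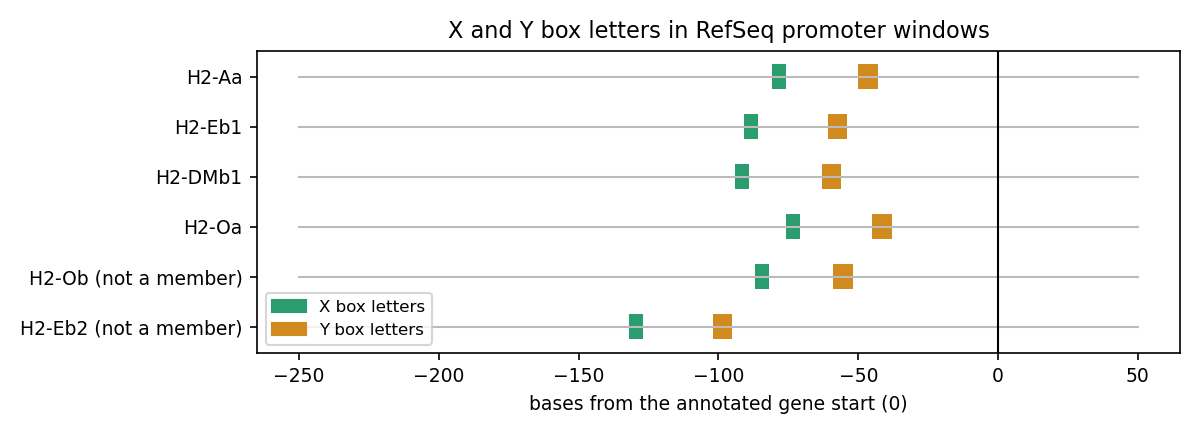
Position of the X core (GNAAC, green) and Y core (TGATTGG, orange) in the RefSeq promoter windows that held both, in bases from the annotated start, 1 row per gene. The Y core starts 45 to 63 bases before the start in the 4 members, and 59 and 102 bases before it in H2-Ob and H2-Eb2.

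Each value below is the log2 of treated over untreated RNA and is printed as mean ± SD over n = 3 sets, where a set's value is the mean of its 2 dye orientations. Sets join arrays by their number alone. After sign-turning, same-numbered arrays deviated in opposite directions in sets 1 and 2 (correlations -0.48 and -0.51) and hardly correlated in set 3 (-0.020). An SD over sets can thus be far smaller than one over arrays (for H2-DMa 0.051 against 0.35). For Cd74 and H2-Eb1 the test with the 6 arrays as 6 values is given too. The direction is the likely one, since on every array the labels call the Cy5 sample the test and the Cy3 sample the control; a reversed convention would turn every sign. A gene is called when its adjusted p is below 0.05 in limma's test over all 11364 features. Arrays held 14195 to 15027 probes with a value other than 0. The table gives ratios and no intensities, so no level of any gene, and no presence or absence of class II mRNA, can be read from it. Lower RNA per cell and fewer cells that make it cannot be told apart.

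Cd74, the invariant chain, rose, and it did so on every array. H2-Eb1, the β chain of the H2-E molecule, passed the threshold with a smaller rise that was not seen in both dye orientations. H2-Ab1, H2-DMa, H2-Oa and Ciita did not pass, and by limma 0 of the 6 measured genes fell (0 also at an unadjusted p below 0.05). That is 2 of 6 called higher, where 29.0% of all features were called, 14.0% higher and 15.0% lower. Their median log2 ratio was 0.045, against 0.00079 over all features.

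**Figure D2:**
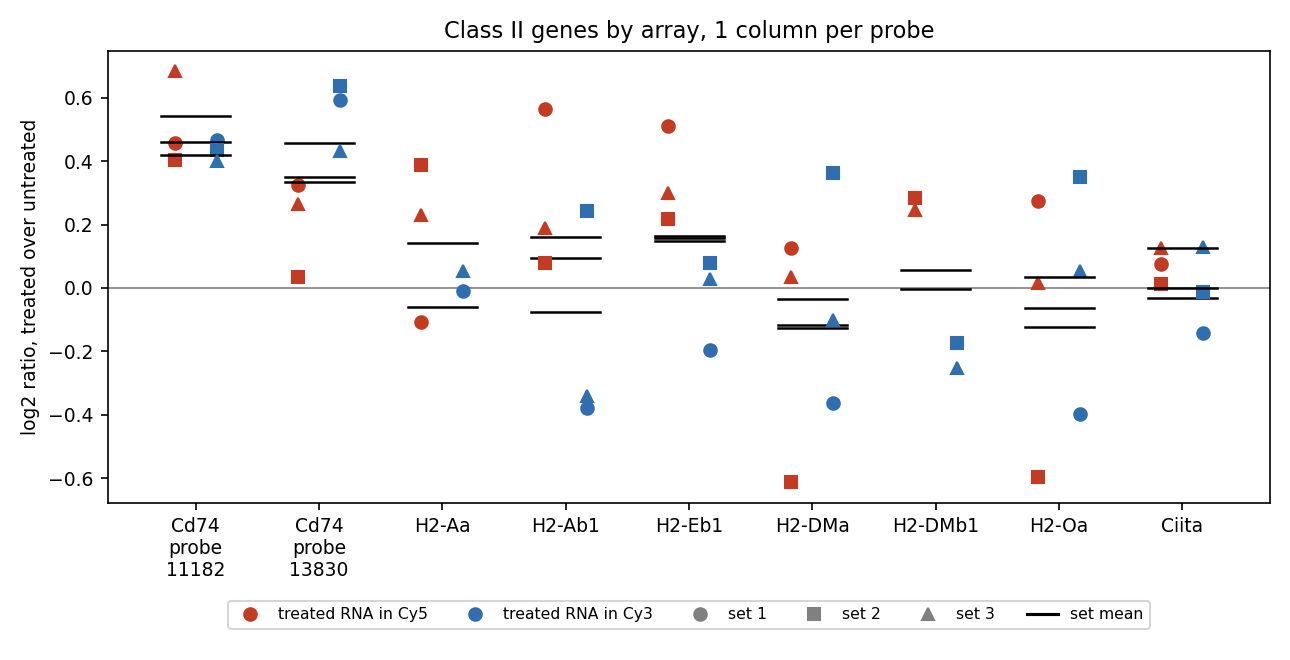
Log2 ratio of treated over untreated RNA for each of the 9 class II probes on each array, with arrays of opposite dye orientation in red (treated in Cy5) and blue (treated in Cy3), sets by symbol, and black bars for set means. Both Cd74 probes lie above 0 on every array, from 0.034 to 0.68, while the other genes have arrays on both sides of 0.

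Cd74 was at 0.39, 0.22 and 0.47 in sets 1 to 3 with treated RNA in Cy5, and at 0.53, 0.54 and 0.42 with it in Cy3. All 6 arrays lay above 0. An equal sign on all 6 arrays was seen in 25.7% of all features, and a called rise with it in 10.7%. The set values were 0.46, 0.38 and 0.45. Cd74 thus rose by 0.43 ± 0.044, a 1.34-fold change (95% interval of the log2 ratio 0.33 to 0.53, limma adjusted p = 2.9e-04). With the 6 arrays as 6 values the adjusted p was 7.5e-04 by limma and the SD 0.12. This placed it at percentile 95.0 of the log2 ratios of all features.

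The 2 Cd74 probes were designed on different sequences, listed in the annotation under different accessions. Probe 11182 read 0.46, 0.40 and 0.68 with treated RNA in Cy5 and 0.47, 0.44 and 0.40 with it in Cy3. Probe 13830 read lower in the first orientation, at 0.32, 0.034 and 0.26, than in the second, at 0.59, 0.64 and 0.43. Tested singly, the probes were at 0.47 and 0.38, and both were called (limma adjusted p = 2.3e-04 and 7.8e-04). The orientation means of probe 13830, 0.21 and 0.55, differed more than those of probe 11182, 0.51 and 0.43. The set means of the probes lay within 0.335 to 0.542.

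The chains that bind peptide at the cell surface gave smaller and less even values. H2-Eb1 was at 0.51, 0.22 and 0.30 with treated RNA in Cy5, and at -0.19, 0.079 and 0.028 with it in Cy3. Every Cy5 array lay above every Cy3 array. The set means were nevertheless close together, at 0.159, 0.148 and 0.164, which gave 0.16 ± 0.0083, a 1.11-fold change (95% interval 0.060 to 0.25, limma adjusted p = 0.0255). The SD of the 6 arrays was 0.24, and that of the 3 set means is far smaller because the orientations of a set deviated in opposite directions.

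The H2-Eb1 call ended when the 6 arrays were taken as 6 values (limma adjusted p = 0.30) or fitted with the set number as a fixed block (0.48), without any 1 of the 3 sets (0.153 to 0.161, adjusted p from 0.0659 to 0.109) and in either orientation alone. With treated RNA in Cy5 it was at 0.34 (limma adjusted p = 0.0523), and with treated RNA in Cy3 at -0.029 (adjusted p = 0.81). Cd74 was called in both, at 0.36 (limma adjusted p = 0.0404) and 0.49 (adjusted p = 0.00626).

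H2-Ab1, the β chain of the H2-A molecule, was at 0.57, 0.079 and 0.19 with treated RNA in Cy5 and at -0.38, 0.24 and -0.34 with it in Cy3. The orientations overlapped and had both signs. Its mean was 0.059 ± 0.12 and did not pass (95% interval -0.071 to 0.19, limma adjusted p = 0.49). H2-Aa, the α chain of that molecule, read -0.11, 0.39 and 0.23 with treated RNA in Cy5, and -0.010 and 0.052 in sets 1 and 3 with it in Cy3. In a limma fit of the 12194 features measured in at least 2 sets, of which 26.7% were called and 12.9% called higher, its value over sets 1 and 3 was 0.041 ± 0.14 (95% interval -0.13 to 0.21, adjusted p = 0.72). H2-Ea, the partner of H2-Eb1 and the single other class II chain gene with a probe, was at 0.62, 0.14 and 0.12 in the first orientation and at -0.27, 0.074 and -0.36 in the second. It averaged 0.053 ± 0.15 (limma adjusted p = 0.59), again with Cy5 arrays higher than Cy3 arrays in each set.

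The peptide editors H2-DM and H2-O showed no called change. H2-DMa was at 0.13, -0.61 and 0.035 with treated RNA in Cy5, and at -0.36, 0.36 and -0.10 with it in Cy3. Its mean was -0.092 ± 0.051 (95% interval -0.20 to 0.011, limma adjusted p = 0.17). H2-Oa, the α chain of the inhibitor H2-O, ran almost in parallel, at 0.27, -0.60 and 0.015 in the first orientation and -0.40, 0.35 and 0.052 in the second. It averaged -0.051 ± 0.080 (95% interval -0.16 to 0.061, limma adjusted p = 0.49). In both genes set 2 was the lowest Cy5 array and the highest Cy3 array. H2-DMb1, measured in sets 2 and 3, read 0.29 and 0.25 with treated RNA in Cy5 and -0.17 and -0.25 with it in Cy3, so that its 2-set mean was 0.026 ± 0.042 (95% interval -0.11 to 0.16, limma adjusted p = 0.79).

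Ciita, the coactivator of the whole group, was at 0.077, 0.012 and 0.12 with treated RNA in Cy5, and at -0.14, -0.013 and 0.13 with it in Cy3. Its mean was 0.031 ± 0.084, a 1.02-fold ratio (95% interval -0.082 to 0.14, limma adjusted p = 0.69). The interval leaves out a rise of the size measured for Cd74. The SD of its 6 arrays was 0.10, the smallest of the 6 genes, while those of H2-Ab1, H2-DMa and H2-Oa were 0.36, 0.35 and 0.37. The median over all features was 0.17.

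The difference between Cd74 and each of the other genes was tested over all features, a test added after the values had been seen. Cd74 exceeded H2-DMa by 0.52, H2-Oa by 0.48, Ciita by 0.40, H2-Ab1 by 0.37 and H2-Eb1 by 0.27 (limma adjusted p from 2.2e-08 to 1.0e-04). The nearest lower bound of a 95% interval was 0.15, for H2-Eb1. With the 6 arrays as 6 values the 5 differences also passed (adjusted p from 0.0010 to 0.0343). As Cd74 lies at the upper end of the distribution, 96.5% of all features differed from it over set means, and 92.9% with the 6 arrays as 6 values. Cd74 was higher than H2-DMa, H2-Oa and Ciita on 6 of 6 arrays and higher than H2-Ab1 and H2-Eb1 on 5 of 6.

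Plotted as deposited, before any sign is turned, a response to treatment gives opposite values on both arrays of a set, and a difference between dyes or spots gives equal ones. Cd74 had values of opposite sign in each set, though of unequal size in set 2. H2-DMa and H2-Oa had values of the same sign on both arrays of sets 1 and 2, both positive in set 1 (0.13 and 0.36; 0.27 and 0.40) and both negative in set 2 (-0.61 and -0.36; -0.60 and -0.35). H2-Ab1 was positive on both arrays of sets 1 and 3, and H2-DMb1 on both arrays of sets 2 and 3. Averaged over sets, the dye effect (the mean of the values as deposited) was larger in size than the treatment value in 4 of the 6 genes, namely H2-Ab1, H2-Eb1, H2-Oa and Ciita, against 49.3% of all features. By limma over set means, 0% of all features had a called dye effect, so that 0 of the 6 genes says nothing about them (0 also at an unadjusted p below the threshold). With the orientations as 2 groups of arrays 4.88% of all features were called and 0 of the 6 genes, of which H2-Eb1 alone had an unadjusted p below the threshold, at a dye effect of 0.19 (limma adjusted p = 0.089).

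**Figure D3:**
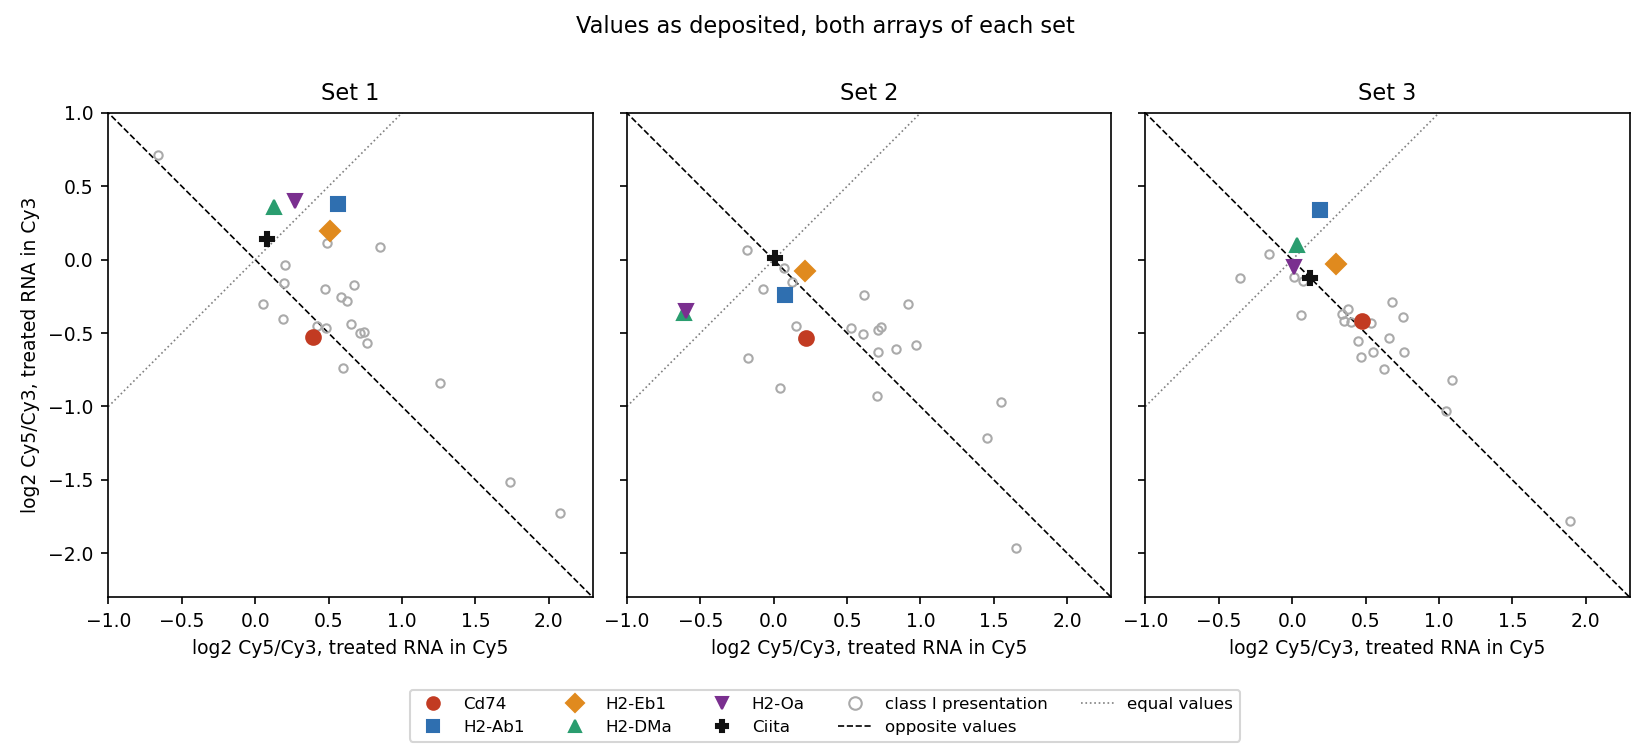
Deposited log2 Cy5/Cy3 on the array with treated RNA in Cy5 (x axis) against that with treated RNA in Cy3 (y axis), 1 panel per set, for the 6 class II genes measured on all arrays (coloured) and 21 class I genes (grey circles). Cd74 has values of opposite sign in every panel and lies furthest from the dashed line of opposite values in set 2. H2-DMa and H2-Oa have values of the same sign in sets 1 and 2, at about 0.13 to 0.40 in set 1 and -0.61 to -0.35 in set 2. The dotted line marks equal values.

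The genes with profiles most like the called members over the 6 arrays, by Euclidean distance, were P2ry2 (distance 0.148, log2 ratio 0.38 ± 0.061) and Zfp593 (0.148, 0.43 ± 0.074) for Cd74. For H2-Eb1 they were Meis1 (0.135, 0.11 ± 0.035) and Vwa5a (0.146, 0.19 ± 0.011).

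Class I genes, which present peptides from the cytosol to CD8+ T cells, are the nearest comparison. Of 21 measured class I genes, 17 rose and 0 fell by limma (0 fell also at an unadjusted p below 0.05), with a median of 0.51 and the same sign on all 6 arrays in 15. Over all features, 14.0% were called higher and 15.0% lower, and 25.7% had the same sign on all 6 arrays. Among the class II genes the same sign was seen in 1 of 6. By set, the medians were 0.43, 0.56 and 0.49 for class I and 0.031, 0.074 and 0.080 for class II, and the difference between the lists was not tested. Tap1, the peptide transporter in the class II region of the MHC, rose by 1.85 ± 0.048 (limma adjusted p = 2.2e-07). Its probes, tested singly, lay far apart, at 1.27 and 2.43, a gap that the SD over sets does not show. H2-T24 rose by 1.33 ± 0.29, the loading factor Tapbp by 1.09 ± 0.16 and the immunoproteasome subunit gene Psmb10 by 0.72 ± 0.082. Pdia3 (-0.25 ± 0.39) and Psmb9 (0.18 ± 0.17) did not pass, but both were called without set 2 (-0.31 and 0.25). For Pdia3 the sets left then had opposite signs, at -0.69 in set 1 and 0.067 in set 3, so that call shows no even fall. The rise of Cd74 was about that of B2m (0.47 ± 0.086) and H2-K1 (0.40 ± 0.087), named after their values were seen. The probes of H2-K1, tested singly, were at 0.52 and 0.29. Probes of near-identical class I genes such as H2-Q1 to H2-Q10 may share transcripts.

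**Figure D4:**
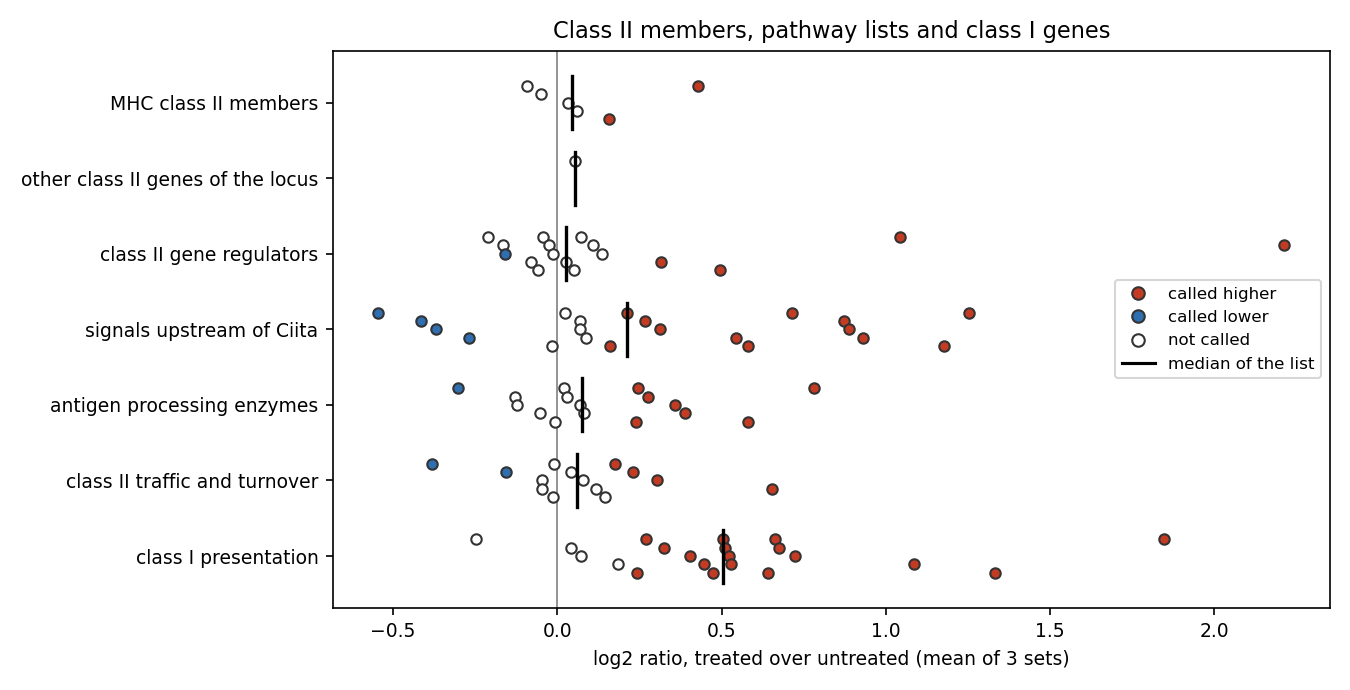
Log2 ratio of treated over untreated RNA (mean of 3 sets) for each measured gene of the class II group, of 5 lists of its pathway and of class I presentation, 1 point per gene, red where called higher, blue where called lower and white where not called, with a black bar at each list's median. The medians are 0.045 for the class II genes and 0.51 for class I.

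Of 17 measured regulators of class II promoters, 4 rose and 1 fell, with a median of 0.026; the share called was near the 29.0% of all features. Irf1, which activates Ciita downstream of interferon, was at 2.26, 1.88 and 2.55 with treated RNA in Cy5 and 1.95, 2.27 and 2.38 with it in Cy3. It rose by 2.21 ± 0.22, a change of 4.64-fold (limma adjusted p = 1.2e-06). Irf8, a myeloid partner of Spi1, rose by 1.04 ± 0.032, Spi1 by 0.50 ± 0.15 and the cAMP-response factor gene Crem by 0.32 ± 0.11. The call of Crem ended with the set number as a fixed block and in either orientation alone (limma adjusted p from 0.073 to 0.11). Creb1, a factor that binds next to the X box and that was named after its value was seen, fell by 0.16 on the log2 scale (± 0.012, limma adjusted p = 0.024). That call ended without any 1 of the sets, and 1 of its probes, tested singly, was at 0.035.

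Of the subunit genes of RFX and NF-Y, the complexes of X and Y boxes in general, 1 passed. Rfxank, the RFX subunit measured in 3 sets, was at -0.042 ± 0.098 (limma adjusted p = 0.60). Rfx5, the DNA-binding subunit, was measured in sets 2 and 3, at 0.24 and 0.34, and was called in the fit of features in at least 2 sets (0.29 ± 0.068, limma adjusted p = 0.0131). The NF-Y subunit genes Nfya (-0.079 ± 0.11), Nfyb (-0.17 ± 0.12) and Nfyc (0.11 ± 0.021) did not pass, with limma adjusted p from 0.0596 to 0.32, though Nfyb was called lower without set 3 (-0.23). Irf4 was at -0.058 ± 0.065 and Zxdc, a cofactor of Ciita, at -0.21 ± 0.18 (limma adjusted p = 0.41 and 0.056), and Zxdc was called lower without set 1 (-0.27). Rfxap had no probe with its symbol.

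Of 21 measured genes of the signals that raise or lower Ciita, 12 rose and 4 fell, with a median of 0.21. Over all features, 14.0% were called higher and 15.0% lower. Ifng, the gene of interferon-γ, was at 0.023 ± 0.058 and did not pass (95% interval -0.082 to 0.13, limma adjusted p = 0.76). Its receptor chains went in opposite directions: Ifngr1, which binds the ligand, fell by 0.37 on the log2 scale (± 0.022, limma adjusted p = 5.0e-04), and Ifngr2 rose by 0.27 ± 0.058 (adjusted p = 0.0034). Among genes known to restrain the response, Socs1, an inhibitor of Janus kinases, rose by 1.25 ± 0.20 and Il10, a cytokine that lowers class II display, by 1.18 ± 0.31. Il10ra rose by 0.93 ± 0.075 and Stat3, which acts below that receptor, by 0.89 ± 0.075. The probes of Il10ra, tested singly, were at 1.305 and 0.56. The other rises, named after their values were seen, included the Janus kinase genes Jak2 (0.87 ± 0.044) and Jak1 (0.16 ± 0.039). Myd88 (0.72 ± 0.068), Tgfb1 (0.58 ± 0.011), Csf2 (0.54 ± 0.31), Csf2ra (0.31 ± 0.072) and Socs3 (0.21 ± 0.047) rose too. The calls of Jak1, Csf2, Csf2ra and Socs3 ended with treated RNA in Cy5 alone or in Cy3 alone. Il4ra (0.086 ± 0.21) and Csf2rb (0.070 ± 0.022) did not pass. The falls besides Ifngr1, named after their values were seen, were Tlr4 (-0.55 ± 0.076), Tgfbr1 (-0.41 ± 0.15) and Tgfbr2 (-0.27 ± 0.024). The probes of Tgfbr1 ranged from -0.72 to -0.14.

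The list of antigen processing holds endosomal proteases that cut antigen and the invariant chain, and also other genes of that compartment. Those others include the protease inhibitor genes Cst3, Cst7 and Cstb, the phosphatase gene Acp5, and Lamp1 and Lamp2. Of its 16 measured genes, 7 rose and 1 fell, with a median of 0.075. The rises thus include genes that are not proteases, namely Acp5, Cstb (0.28 ± 0.029) and Lamp2 (0.24 ± 0.020). Over all features, 14.0% were called higher and 15.0% lower. Sppl2a, the protease that removes the last membrane stub of Cd74, rose most, by 0.78 ± 0.044 (limma adjusted p = 1.4e-05). Ctsc rose by 0.58 ± 0.090, Acp5 by 0.39 ± 0.052 and Ctsb by 0.36 ± 0.069. The call of Acp5 ended with the set number as a fixed block and with treated RNA in Cy3 alone (limma adjusted p = 0.053 and 0.11). Ctss, the protease that trims Cd74 in macrophages and dendritic cells, was at 0.30, 0.40 and 0.26 with treated RNA in Cy5 and 0.21, 0.13 and 0.20 with it in Cy3. It rose by 0.25 ± 0.019, a 1.19-fold change (limma adjusted p = 0.0036). Lgmn, an asparagine-specific protease of the same compartment, fell by 0.30 on the log2 scale (± 0.050, limma adjusted p = 0.0018).

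Other genes of this list, named next, did not pass. Ctsl had a mean near 0 that hid opposite orientations, at -0.35, -1.23 and -0.038 with treated RNA in Cy5 and 0.26, 0.90 and 0.41 with it in Cy3 (-0.0077 ± 0.18, limma adjusted p = 0.95). The protease inhibitor genes Cst7 (-0.13 ± 0.23) and Cst3 (-0.12 ± 0.030) were not called, and Cst7 was called lower without set 2 (-0.26). Ifi30, the reductase that opens disulfide bonds of antigens, was measured in sets 2 and 3 and averaged 0.14 ± 0.16 there (limma adjusted p = 0.23).

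In the list of traffic and turnover, 4 of 14 measured genes rose and 2 fell, with a median of 0.061. Over all features, 14.0% were called higher and 15.0% lower. Among its tetraspanin genes, whose proteins organise class II molecules in membranes, Cd82 rose by 0.65 ± 0.041 and Cd9 by 0.30 ± 0.046, Cd63 (0.12 ± 0.0050) and Cd37 (-0.047 ± 0.041) did not pass, and Cd81 fell by 0.38 on the log2 scale (± 0.11, limma adjusted p = 0.0013). The probes of Cd37, tested singly, were at 0.077 and -0.17, the latter called lower (limma adjusted p = 0.037). Vps33a rose by 0.23 ± 0.066. The calls of Cd9 and Vps33a ended with the set number as a fixed block (limma adjusted p = 0.064 and 0.099). They also ended in 1 orientation, Cd9 with treated RNA in Cy5 alone (adjusted p = 0.15) and Vps33a with it in Cy3 alone (0.21). Marchf8, a ubiquitin ligase that removes class II molecules from the surface, was at -0.16 ± 0.042 (limma adjusted p = 0.031), a fall on each of the 6 arrays whose call ended without any 1 of the sets (-0.17 to -0.13). Rab7 (0.15 ± 0.065) did not pass, and Marchf1 had no probe with its symbol. The probes of Rab7, tested singly, were at 0.16 and 0.14, the former called higher (limma adjusted p = 0.047).

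Markers of B cells, dendritic cells, T cells and macrophages were set beside these values. For scale, 14.0% of all features were called higher and 15.0% lower. Of 9 measured B cell markers, 2 rose and 0 fell by limma (0 fell also at an unadjusted p below 0.05), with a median of 0.078. They were Ighm (0.47 ± 0.076, limma adjusted p = 2.6e-04) and Cd22 (0.15 ± 0.079, adjusted p = 0.049). The 2 probes of Cd22 were called in opposite directions, at 0.52 and -0.21 (limma adjusted p = 0.0046 and 0.029). Its call ended without set 1 or set 3, with 6 arrays as 6 values and with the set number as a random or fixed block. Cd79b (0.098 ± 0.11) and Vpreb1 (0.083 ± 0.21) did not pass. Of 6 dendritic cell markers 0 were called by limma (0 also at an unadjusted p below 0.05), with values from -0.087 (Zbtb46) to 0.088 (Fscn1). In the fit of features in at least 2 sets, which also takes probes at 0 on some arrays, Fscn1 was at 0.41 and called (limma adjusted p = 0.0266). Of 8 T cell markers 1 rose, Cd4 (0.23 ± 0.12), a call that ended without set 1 or set 3 and in that fit (0.10, limma adjusted p = 0.17). Cd8b1 (-0.11 ± 0.060) and Cd3g (0.084 ± 0.21) did not pass. The probes of Cd8b1, tested singly, were at 0.034 and -0.25, the latter called lower (limma adjusted p = 0.0062). Of 10 macrophage markers 5 rose and 1 fell, with Fcgr1 at 1.14 ± 0.13, Adgre1 at 1.10 ± 0.13, Mpeg1 at 1.08 ± 0.13 and Lyz2 at 0.77 ± 0.098. The fall was that of Csf1r, the receptor for macrophage colony-stimulating factor (-0.30 ± 0.066, limma adjusted p = 0.0024), named after its value was seen. Cd68, Mrc1, Mertk and Cx3cr1 did not pass, at -0.044 (Cx3cr1) to 0.091 (Mrc1). Ratios give no levels, so the labelled cell type could not be checked against the abundance of its markers, and the part of other cells in the rise of Cd74 was not tested.

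**Figure D5:**
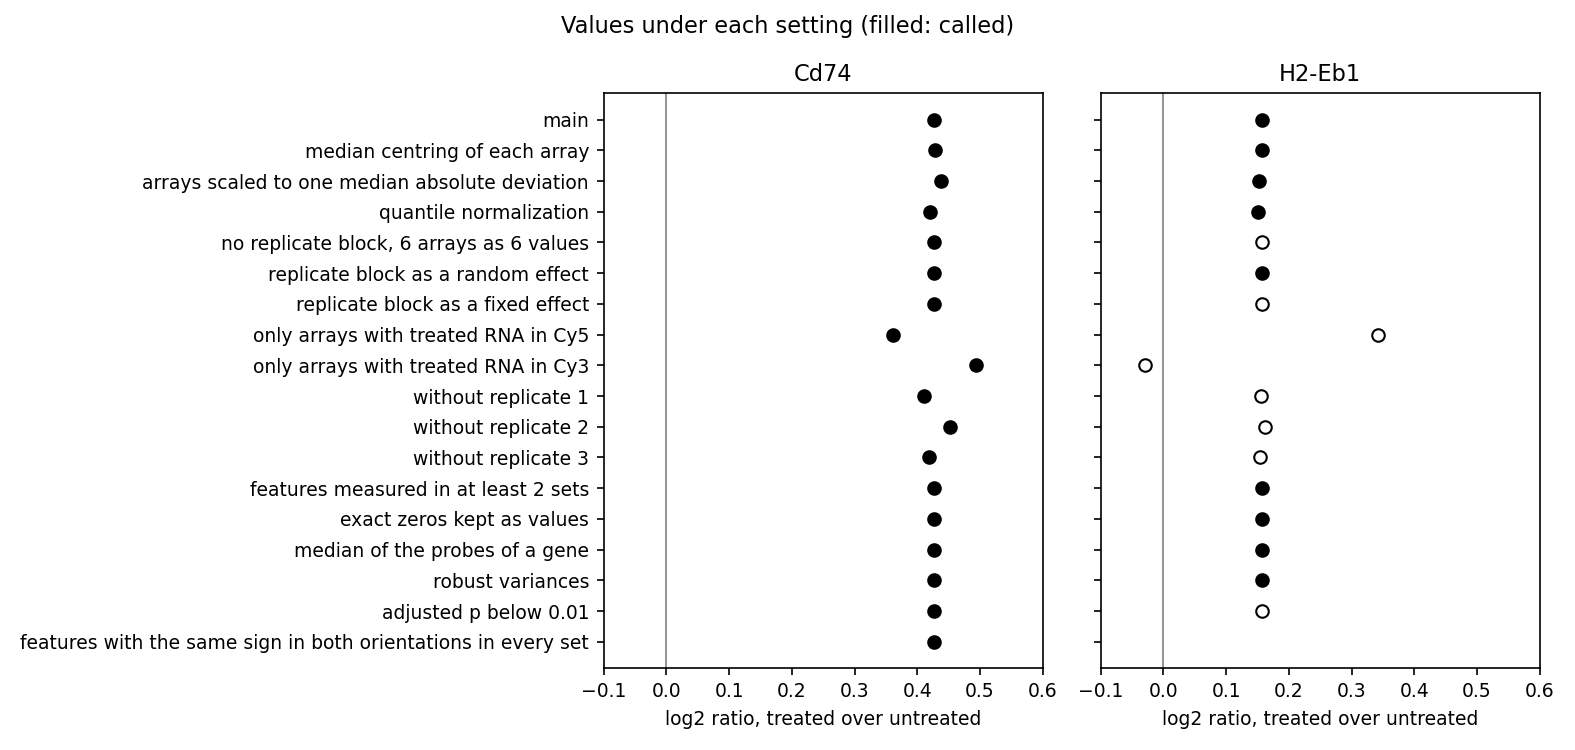
Log2 ratio of Cd74 (left) and H2-Eb1 (right) under the main setting and each alternative, filled where called and open where not. Cd74 is called throughout, between 0.36 and 0.49 in the settings plotted, while H2-Eb1 runs from -0.029 to 0.34 and is open for either orientation alone, without any 1 set, with 6 arrays as 6 values, with the set number as a fixed block and at an adjusted p below 0.01.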

How the data were processed

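The file used is the series' value table, with 1 value per probe and array. The deposited values are log2 ratios of the array's 2 channels: the largest, 6.643856, is log2 of a ratio of 100, and every array has a median of 0. Scanner, background correction and normalization: not given in the sources used here. The compression of dim ratios is thus unknown. Values were read as Cy5 over Cy3, and the sign was turned where Cy3 held the treated RNA; as deposited, opposite orientations correlated from -0.775 to -0.397 across features. That both arrays of a set shared RNA is an assumption.

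The 13415 probes without an exact 0 were averaged per gene symbol of the platform annotation (checked by Entrez ID against RefSeq, GRCm38.p6: 13694 of 13738 matched), giving 11364 features. The 3 set means were tested against 0 with limma 3.58.1 (R 4.3.3; lmFit, eBayes, two-sided) and Benjamini-Hochberg adjustment over all features. The fit was tested on simulated data.

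The members and gene lists were chosen with earlier results of these data known. Named genes were all members, up to 4 called and 2 uncalled genes per list with the largest change, and a fixed set of regulators, proteases and ligases; nearest genes were taken by Euclidean distance. Alternatives covered normalization, set number as block, orientation, sets, zeros, probes, variances, threshold and a sign filter.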

Additional observations from a re-analysis of the deposited data

Results flagged for a closer look

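For Ctsl, a cathepsin, and Mrc1, the mannose receptor, every array of 1 dye orientation lay on the opposite side of 0 from every array of the other. Ctsl averaged -0.539 with treated RNA in Cy5 and 0.524 with it in Cy3, and Mrc1 0.222 and -0.0397. Of all features 13% showed this pattern, and 0 of the 6 class II members did. With the orientations as 2 groups of arrays, the dye effect had a limma adjusted p of 0.088 for Ctsl and 0.062 for Mrc1; over set means no feature at all passed, so that test says nothing about these genes.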

How the results depend on the processing

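Cd74 kept its direction and its call in all 19 alternative values (0.36 to 0.49), and Ciita, H2-Ab1, H2-DMa and H2-Oa were not called in any of 17 each. The count of class II members called higher, 2, was 1 with no replicate block (6 arrays as 6 values), with a fixed replicate block, in either orientation alone, at an adjusted p below 0.01, with a sign filter, and without each set (1 to 1); it was 2 with a random replicate block. The sign filter keeps features with the same sign in both orientations of every set, so it took H2-Eb1 out of the test. Of the 3153 features it left, 88.7% were called, so the call of Cd74 there adds little. Over all features, 1586 were called higher and 1708 lower. With a fixed replicate block the counts were 904 and 848, with treated RNA in Cy5 alone 931 and 894, with it in Cy3 alone 1079 lower, and at an adjusted p below 0.01 1063 lower. Over the 5 pathway lists, 8 genes were called lower, and 4 with treated RNA in Cy5 alone. In Cy5 alone Socs3 turned to -0.031, and the calls of Lgmn, Ifngr2 and Tgfbr2, among others, ended. In Cy3 alone H2-Eb1 turned to -0.029, Cd22 to -0.0068 and Ctsl to 0.52, and the call of Ctss, among others, ended. Among single probes, 1 of Creb1 was at 0.035 and 1 of Cd22 at -0.21. The cause was not tested. Of 1985 gene values under alternatives, 1866 stayed on their side of the threshold, 90 lost and 23 gained a call and 6 reversed. Same-numbered arrays did not deviate together after sign-turning (correlations -0.48, -0.51 and -0.020 over sets 1 to 3), while Cy5 set 1 did with Cy3 set 2 (0.45) and Cy5 set 2 with Cy3 set 1 (0.53), so the numbers are not shown to pair samples. The number of arrays limits precision, and no intensities were given.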
